A study of Mus musculus with 10 samples.

Results

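Open chromatin of activated and non-activated nuclei was compared in the ventral tegmental area of standard-reared mice, using 4 of the 10 ATAC-seq libraries of the series: every library titled as standard-reared, 2 labelled activated and 2 labelled non-activated. All mice were adults (older than postnatal day 60) of the genotype ArcCreERT2 x Sun1/+. In these mice a tamoxifen-dependent Cre recombinase under the activity-regulated gene Arc switches on Sun1-myc-sfGFP, a fluorescent tag on the nuclear envelope, and tagged nuclei were pulled from the total nuclei with magnetic beads. The labels state neither the stimulus nor the time window that the tag records, and both classes of nuclei come from mice of the same genotype. Each library came from a single animal. Activated replicate 1 was from a male, and activated replicate 2 and both non-activated replicates were from females. Activated replicate 2 and non-activated replicate 1 came from the same female, so the 4 libraries stand for 3 mice. The 6 other libraries, from mice reared under early life stress (3 activated and 3 non-activated from the same 3 animals), took no part in choosing regions. They served to look at the same regions and the same measures per library. Their whole lists also helped to define the open regions from which distances were measured.

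ATAC-seq uses the transposase Tn5, which inserts sequencing adapters where DNA is free of nucleosomes. Peaks therefore mark promoters, enhancers and other regulatory DNA. The ventral tegmental area holds dopamine, GABA and glutamate neurons among glia, and firing neurons switch on Arc and other immediate early genes, several of which encode transcription factors. Whether a class of nuclei held one of these cell types was not checked against marker genes, because no gene annotation of the build of the peaks (mm39) was used here. For the same reason regions are given by position, with the chromosome and the distance to other open regions as their genomic class.

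The 4 libraries differed in depth along the comparison. The deposited lists held 39783 and 17283 distinct peaks in activated replicates 1 and 2, against 7076 and 14636 in the non-activated replicates. Depth solved from the lists came to 10.9 and 5.30 fragments per kb for the activated replicates and 1.45 and 1.13 for the non-activated ones. The smallest peak width, taken as the fragment length, was 151 and 152 bp against 235 and 210 bp. Activation, depth and fragment length cannot be told apart in these 4 libraries, and sex is partly tied to them. Of the stressed libraries, the one labelled non-activated replicate 1 had the fragment length (150 bp) and depth (6.52 fragments per kb) of the activated libraries and ordered regions by strength as they did. In the shares of its strongest peaks on chromosomes 13 (3.67%) and X (2.18%), described below, it stood with the non-activated libraries. The same held for the mean number of other peaks at 2 to 50 kb (0.685). In the chromosome 17 share (4.58%) and the median width (749 bp) of those peaks it lay within the range of the activated libraries. Whether its label is right cannot be told from the lists, so the stressed comparisons are given with and without it, a choice made after its values were seen except for the presence of the 534 and 513 regions described below. With 2 libraries a side the exact permutation test cannot go below p = 0.333, and since 1 animal is on both sides its p-values treat its libraries as independent. To compare lists of equal length, only the top 7076 peaks by -log10 q were kept from each, as many as the shortest list holds. That cut kept peaks down to a -log10 q of 13.3 and 8.84 in the activated libraries, 8.67 in non-activated replicate 2 and 1.31 in non-activated replicate 1, whose list was kept whole.

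The activated libraries had more peaks and, among equally many of the strongest, wider ones, but no difference can pass a test of this size. The number of peaks was 2.58 times as high in activated as in non-activated libraries (mean log2 14.68 ± 0.85 against 13.31 ± 0.74, SD, n = 2 in both classes; exact permutation p = 0.333, two-sided as are all such tests here). At equal list length the median peak was 795 and 572 bp wide in the activated libraries and 360 and 521 bp in the non-activated ones. The activated libraries lay above both others, but activated replicate 2 and non-activated replicate 2 were close. The ratio of median widths was 1.56 (exact permutation p = 0.333), and the log2 difference was 0.67 within the female that gave both classes, against 0.64 over all 4 libraries. Covered length followed width, with 5.90 and 4.25 Mb against 2.74 and 3.86 Mb (ratio 1.54, exact permutation p = 0.333; adjusted p = 0.333 over the 3 measures). In the whole lists the activated peaks were instead narrower, at a width ratio of 0.805 (exact permutation p = 0.667).

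Peaks also had more summits in activated libraries. Of the 7076 strongest peaks, 63.8% and 39.5% carried several summits in activated replicates 1 and 2, against 1.85% and 8.14% in the non-activated replicates. The classes did not overlap in this share. In stressed mice it was 40.4%, 35.1% and 29.6% in activated replicates 1 to 3, and 42.7%, 2.2% and 1.43% in non-activated replicates 1 to 3. The stressed library labelled non-activated replicate 1 thus had the highest share of the 6, so the stressed groups overlapped. No test was run on this share over all 6. Without that library the stressed means differed by 33.2 percentage points (exact permutation p = 0.1, the lowest reachable). The part of depth and fragment length in this share was not tested. The median summit pileup, the number of fragments stacked at the summit, was 39 and 25 in the activated lists and 11 and 22 in the non-activated ones. The median fold of the summit over its local background, the authors' own value, was 7.93 and 8.19 in activated replicates against 6.11 and 9.98, so that non-activated replicate 2 held the highest and non-activated replicate 1 the lowest.

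A common set of open regions made up the largest group in all 4 libraries. Merging the equal-length lists gave 10162 regions, of which 4210 (41.4%) had a peak in every library, 1805 in exactly 3, 1750 in exactly 2 and 2397 in a single one. The single-library regions came mostly from non-activated replicate 1 (823) and activated replicate 1 (690), the libraries of the fewest and the most peaks, while activated replicate 2 and non-activated replicate 2 added 399 and 485. Among regions found in exactly 3 libraries, 658 lacked a peak in non-activated replicate 1, 531 in activated replicate 1, 363 in non-activated replicate 2 and 253 in activated replicate 2.

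**Figure D1:**
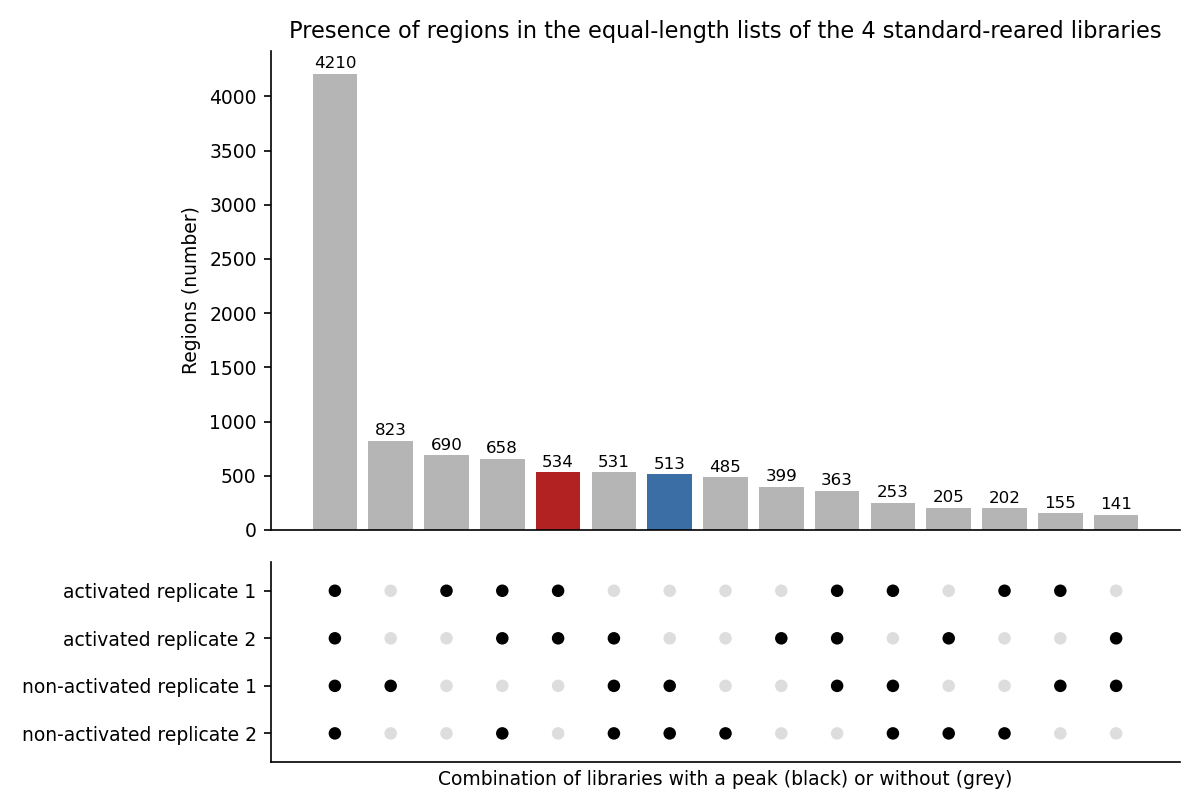
Number of regions for each combination of the 4 standard-reared libraries with a peak among their 7076 strongest; black dots mark libraries with a peak and grey dots libraries without. The 4210 regions shared by all form the tallest bar, and the combinations of both activated (534, red) and both non-activated libraries (513, blue) stand above the 4 mixed pairs (141 to 205).

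Among regions shared by exactly 2 libraries, pairs of the same label held more than the pair from the same animal. Libraries of the same label are also alike in depth and fragment length. The activated pair alone shared 534 regions and the non-activated pair alone 513. Activated replicate 2 shared 205 with non-activated replicate 2, and activated replicate 1 shared 202 with non-activated replicate 2 and 155 with non-activated replicate 1. The lowest number, 141, belonged to activated replicate 2 and non-activated replicate 1, the libraries of the same female. Of all regions found in either library of a pair, the share found in both was 69.1% for the activated pair and 64.5% for the non-activated pair. Mixed pairs had between 54.9% and 66.0%, and the upper end, of activated replicate 2 with non-activated replicate 2, exceeded the non-activated pair.

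The 534 regions of the activated libraries (present in both, absent from both non-activated lists) were 6.88% of the 7765 regions with a peak in at least 2 libraries, and the 513 regions of the non-activated libraries were 6.61%. Nearly all had a weaker peak in at least 1 whole list of the other class. Of the 534, 501 had a peak lower down in the whole list of non-activated replicate 2, at a median position of 8987 by -log10 q, and 33 (6.18%) had none in either whole list. Absence from non-activated replicate 1 is absence from its entire list, the shallowest in peak number. Of the 513, 485 and 492 had a peak in the whole lists of activated replicates 1 and 2, at median positions of 10980 and 9127, and 7 (1.36%) had none. None of those 33 or 7 regions lacked a peak in every whole stressed list of the other class as well. For the 33 this is settled by the library labelled stressed non-activated replicate 1 alone. Its whole list of 50786 peaks held 100% of the 534. Without a cut, 2844 regions were called in both activated and neither non-activated list (17.6% of 16202) and 42 the other way (0.259%). Leaving out 1 library loosens the rule. The activated count then became 943 without activated replicate 1, 1226 without activated replicate 2, 897 without non-activated replicate 1 and 1192 without non-activated replicate 2, and the non-activated count 768, 1045, 998 and 1345 in the same order.

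Regions of 1 class were weaker and narrower than shared regions within the same library. In activated replicate 1 the median fold of the 534 was 7.89, at percentile 49.2 of the list, and that of the 4210 shared regions 8.15, at percentile 55.4. Activated replicate 2 had 7.76 at percentile 40.0 for the 534 and 8.76 at percentile 62.5 for the shared regions. The gap was wider on the non-activated side. There the 513 had median folds of 5.59 (percentile 37.7) and 8.65 (percentile 27.9) in replicates 1 and 2, against 6.88 (64.9) and 11.3 (66.1) for the shared regions. In activated replicate 1, 10.3% of the 534 were among the top 10% of the list by fold, the share of the list itself, and in activated replicate 2 it was 2.25%. Of the 513, 0.780% and 0.585% were there in the non-activated replicates, and of the shared regions 12.5% to 16.1% over the 4 libraries. Since the cut on -log10 q chose these regions, the values are a description.

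Widths showed the same order in each library. Peaks of the 534 had medians of 692 and 485 bp in activated replicates 1 and 2, below the 868 and 649 bp of shared regions. Peaks of the 513 had medians of 311 and 437 bp in non-activated replicates 1 and 2, below 415 and 578 bp. Peaks with several summits made up 58.6% and 30.9% of the 534 and 0.780% and 6.43% of the 513.

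**Figure D2:**
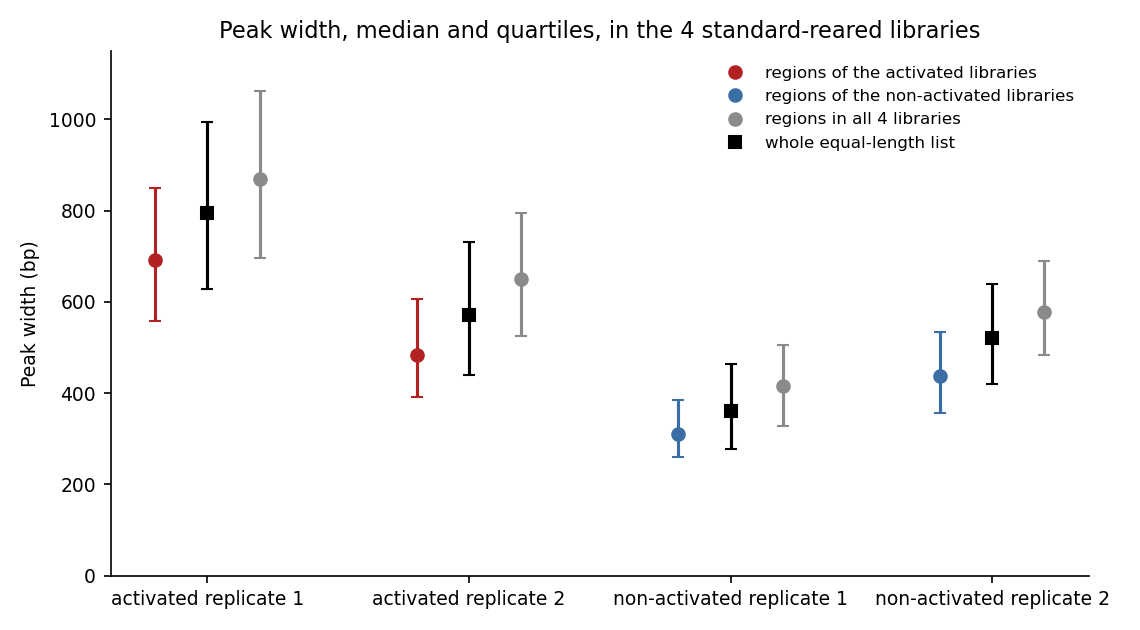
Peak width in bp in the equal-length lists of the 4 standard-reared libraries, as median with lower and upper quartile, for regions of 1 class (red or blue), the whole list (black squares) and regions in all 4 libraries (grey). In every library the regions of 1 class are narrowest and the shared regions widest, for example 692, 795 and 868 bp in activated replicate 1.

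The 10 named regions of the activated class had no peak in either whole non-activated list, as the naming rule puts such regions first. The first lay at chr11:43324562-43324910 (mm39). Its summit stacked 30 fragments over a background of 1.75 in activated replicate 1 (fold 11.3, percentile 94.8, 348 bp wide). In activated replicate 2 it stacked 16 over 0.836 (fold 9.26, percentile 71.0, 254 bp). The region at chr18:10617630-10618217 had folds of 10.9 and 9.04 and widths of 588 and 498 bp, and that at chr13:3967655-3968304 folds of 10.6 and 8.86. Next came chr16:57426812-57427375, chr15:59245701-59246330, chr15:50732817-50733260, chr19:6789928-6790178, chr15:76460463-76460894, chr18:52901208-52902018 and chr1:131080803-131081120. In the weaker of the 2 activated libraries the 10 stood between percentiles 45.7 and 71.0. Of these, 9 had a peak in all 3 whole stressed activated lists and 1, at chr19:6789928-6790178, in all 3 whole stressed non-activated lists. Of all 534, the whole stressed activated lists held 97.6%, 99.4% and 96.1% in replicates 1 to 3. The whole stressed non-activated lists held 100%, 69.7% and 39.5%. Only chr15:59245701-59246330 was among the strongest peaks of all 3 stressed activated libraries, and 1 stressed non-activated library held it there too.

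Regions of the non-activated class without any activated peak numbered 7, and in the weaker library all 7 were below the median of their list. The first, at chr17:10702933-10703294, stacked 19 fragments over a background of 1.22 in non-activated replicate 1 (fold 9.0, percentile 89.3) and 18 over 1.09 in replicate 2 (fold 9.08, percentile 35.6). At chr11:115847307-115847787 the folds were 5.58 and 8.41, at percentiles 37.0 and 23.8. The other 5 were chr19:5862132-5862433, chr9:45964292-45964698, chr9:108926843-108927272, chr5:118137169-118137543 and chr8:111452063-111452476, and the 7 stood between percentiles 6.61 and 35.6 in their weaker library. A further 3 regions were stronger but had activated peaks below the cut. At chr15:78058230-78058810 the folds were 10.4 and 13.3 in the non-activated libraries (percentiles 96.1 and 84.0), and 3.47 and 5.60 in activated replicates 1 and 2. Those activated peaks stood at positions 14177 and 7754 of their lists, against 256 and 863 in the non-activated ones. In fragments the summit held 26 and 19 in the activated and 25 and 41 in the non-activated libraries, over backgrounds of 6.78 and 2.57 against 1.5 and 2.16. The regions at chr5:137598972-137599392 and chr2:30978339-30978872 had the same pattern, with folds of 5.22 and 6.21 against 8.80 and 14.6 at the first. Of the 10, 8 had a peak in all 3 whole stressed non-activated lists and 5 in all 3 whole stressed activated lists. Of all 513, the whole stressed non-activated lists held 99.8%, 94.5% and 80.1% in replicates 1 to 3. The whole stressed activated lists held 90.8%, 99.8% and 95.1%.

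The classes differed in where they lay. Neither the cut nor the presence rule took position as such. The cut on -log10 q does depend on the local background, which differed between positions, and its part in the distances was not tested. Regions of the non-activated libraries had other open regions closer by. The nearest of the 5296 regions called in all 10 whole lists, leaving out those within 2 kb, was a median of 45.5 kb away for the 513 (quartiles 19.5 and 96.0 kb), 87.6 kb for the 534 (37.0 and 216 kb) and 79.0 kb for the shared regions (37.9 and 177 kb). Within 100 kb, 23.6% of the 513 had no such region, compared with 46.1% of the 534 and 42.6% of the shared ones. The median of the 513 was thus the lowest of the 3 sets. These distances were not tested, since regions are not replicates.

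The same order was seen when all strongest peaks were used. A peak had on average 0.566 and 0.645 other peaks of its list at 2 to 50 kb in activated replicates 1 and 2, against 0.694 and 0.744 in the non-activated ones (exact permutation p = 0.333). Stressed libraries, which played no part in the choice of regions, had 0.592, 0.627 and 0.619 in activated replicates 1 to 3 and 0.685, 0.687 and 0.695 in non-activated replicates 1 to 3. All activated values lay below all non-activated ones (difference -0.0760; exact permutation p = 0.1, which is the lowest value 3 against 3 can reach; adjusted p = 0.14 over 7 tests in stressed libraries). Without stressed non-activated replicate 1 the difference was -0.0781 (exact permutation p = 0.1). The part of depth and fragment length in it was not tested.

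By chromosome, the largest contrasts between the classes were on chromosomes 13 and 17, chosen after the values were seen. Chromosome 13 held 35 of the 534 (6.55%), 11 of the 513 (2.14%) and 3.87% of the shared regions. Chromosome 17 held 15 (2.81%), 40 (7.80%) and 4.39%. Over whole equal-length lists the chromosome 13 share was 4.27% and 4.18% in activated and 3.50% and 3.55% in non-activated libraries. In stressed mice it was 4.14%, 4.00% and 3.97% in activated and 3.67%, 3.76% and 3.75% in non-activated libraries, again without overlap (difference 0.311 points; exact permutation p = 0.1; adjusted p = 0.14). Without stressed non-activated replicate 1 that difference was 0.285 points (exact permutation p = 0.1). Chromosome 17 gave 4.13% and 4.41% against 4.76% and 4.95% in standard-reared mice. Its stressed values overlapped, at 4.56%, 4.45% and 4.59% against 4.58%, 4.82% and 4.90% (difference -0.231 points; exact permutation p = 0.2; adjusted p = 0.233). Without stressed non-activated replicate 1 they did not overlap (-0.325 points; exact permutation p = 0.1).

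Peaks on the X chromosome were fewest in the activated list from the male, with 98 of 7076. The 3 female lists had 124 in activated replicate 2 and 145 and 138 in the non-activated replicates. In the female with both classes the activated library thus had fewer X peaks, and in stressed mice 118, 141 and 130 activated stood against 154, 156 and 150 non-activated peaks (exact permutation p = 0.1 on the shares; adjusted p = 0.14), with 2 males and 1 female on both sides. The shares differed by -0.334 percentage points, and by -0.330 (exact permutation p = 0.2) once the stressed library labelled non-activated replicate 1 was left out. X held 6 of the 534 and 13 of the 513 regions. When lists of autosomal peaks alone were cut anew to equal length and merged, the counts of both classes were 519 and 504.

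Among regions open in all 4 libraries, the order of strength differed between the classes. Each library ranked its peaks by fold, as a percentile of its 7076. Across the 4210 shared regions Spearman's rho of these percentiles was 0.669 between the activated libraries and 0.580 between the non-activated ones. Mixed pairs had 0.123 to 0.441, and the libraries of the same female had 0.282. These are descriptions across regions, which are not independent, and the libraries of a class share depth and fragment length. Both activated percentiles exceeded both non-activated ones in 889 regions (21.1%), and the reverse held in 1388 (33%).

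Tested with limma on normal scores of the percentiles, 105 regions ranked higher in activated libraries (2.49% of 4210) and 289 ranked higher in non-activated libraries (6.86%) at an adjusted p below 0.05. The 105 were compact regions with a median width of 688 bp, and the 289 broader ones of 976 bp. Median percentiles of the 105 were 93.4 and 92.9 in activated replicates 1 and 2, against 21.7 and 34.6 in the non-activated ones. Those of the 289 were 9.05 and 22.1 against 88.2 and 83.5. The called regions carry these values by selection. The fit took the 4 libraries as independent, although activated replicate 2 and non-activated replicate 1 came from the same female. It had 2 residual degrees of freedom for each region and borrowed its variance from all regions (56.8 prior degrees of freedom). The limma p-values thus rest largely on the spread across regions, which are not independent, and do not stand for replication over animals.

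**Figure D3:**
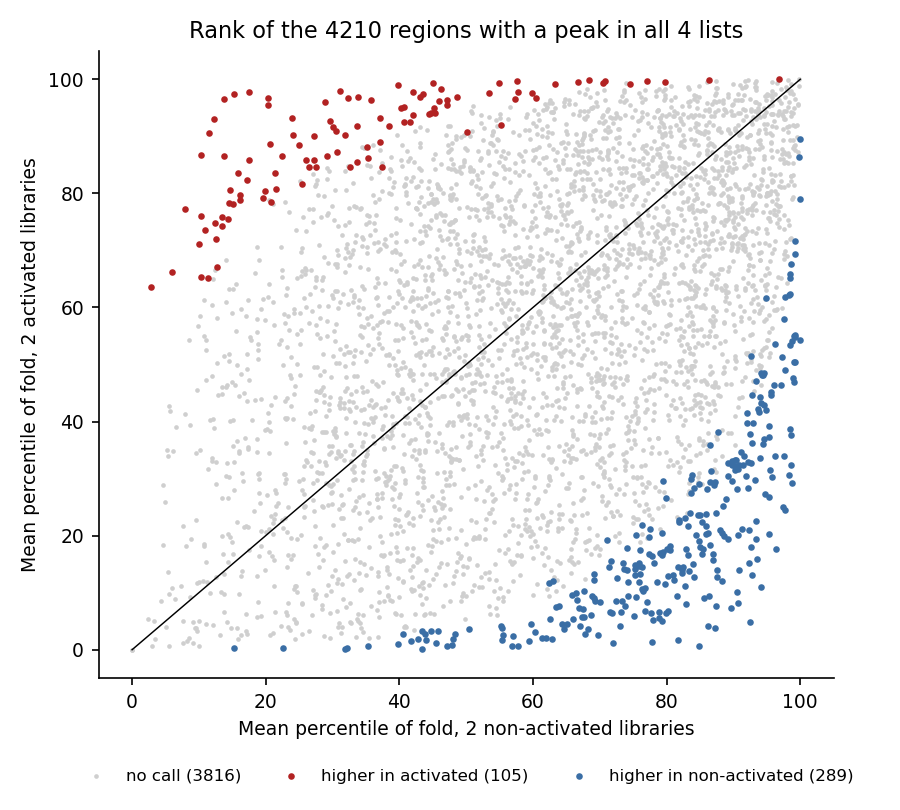
Mean percentile of fold in the 2 activated libraries (vertical) against that in the 2 non-activated libraries (horizontal), 1 point for each of the 4210 regions with a peak in all 4 equal-length lists; the line marks equal rank. The 105 regions ranked higher in activated (red) and the 289 ranked higher in non-activated libraries (blue) fill opposite corners, and regions without a call are grey.

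The called regions differed from the shared ones in background as well as in pileup. In the 289, activated replicate 1 had a median summit pileup of 47 fragments over a background of 7.26, compared with 44 over 4.42 for all shared regions. Non-activated replicate 1 had 22 over 1.6, compared with 13 over 0.963. The pileup was thus near the shared level in the activated library and above it in the non-activated one, over a raised background in both. The 105 had 41 over 2.67 in activated replicate 1 and 7 over 0.611 in non-activated replicate 1, a background below the shared level in both. The fold has a pseudocount of 1 in both terms, and backgrounds were lower in the shallow libraries. The part of this in the calls was not tested. When regions were ranked by pileup alone, limma called 2 higher in activated and 0 higher in non-activated libraries (646 with an unadjusted p below 0.05).

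The calls also depended on single libraries and on the scale. Without activated replicate 1, activated replicate 2, non-activated replicate 1 or non-activated replicate 2 there were 21, 44, 39 and 147 regions higher in activated and 38, 172, 76 and 251 higher in non-activated libraries. The median difference over all shared regions was -0.15 normal scores, and ranking among the shared regions alone moved it to 0.02 and the calls to 166 and 220, or 43.0% higher in activated in place of 26.6%. In the whole lists, of unequal length, the median difference was 0.56 and 96.2% of the calls (200 against 8) were higher in activated libraries, and ranked by -log10 q there were 12 against 6 (66.7%). The balance of both directions thus changed with the scale. Keeping regions with a peak in at least 3 libraries, with absent ones at the lowest rank, limma called 0 in either direction, with 690 at an unadjusted p below 0.05.

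Among the 5 named regions of higher rank in activated libraries, the largest difference was at chr14:75521452-75522310, where folds were 11.7 and 13.3 in activated replicates 1 and 2 (percentiles 96.6 and 98.7) and 4.44 and 8.48 in the non-activated ones (9.80 and 25.2). Its summits held 40, 31, 5 and 13 fragments in that order. The rank difference was 3.01 normal scores (SE 0.57; limma adjusted p = 0.00086, and 5.4e-05 to 0.408 over its alternatives). At chr2:80145694-80146455 the folds were 13.5 and 11.5 against 5.04 and 8.08, with summits of 47, 27, 7 and 12 fragments. The others were chr4:24897797-24898452, chr1:134289278-134289896 and chr18:43820364-43820990, and the 5 differences ran from 2.69 to 3.01. All 5 had a peak in every whole stressed activated list, and each of those lists held 99.9% to 100% of all shared regions.

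The 5 named regions of higher rank in non-activated libraries had peaks in the whole lists of all 10 libraries. Each whole stressed list held 93.6% to 100% of all shared regions. At chr5:34344398-34345657 folds were 4.51 and 4.88 in activated replicates 1 and 2 (percentiles 0.798 and 0.396) and 9.73 and 12.3 in the non-activated ones (93.6 and 76.0), a rank difference of -3.65 (SE 0.57; limma adjusted p = 0.00014). In whole lists it was -1.42 (limma adjusted p = 0.163), and over all alternatives the adjusted p ran from 3.2e-06 to 0.408. Its summits held 47 and 30 fragments over backgrounds of 9.63 and 5.35 in the activated libraries, and 30 and 62 over 2.19 and 4.12 in the non-activated ones. At chr4:155307305-155308104 folds were 5.73 and 8.29 against 13.9 and 16.1. By -log10 q that region stood at positions 1806 and 476 of the activated lists and 3 and 8 of the non-activated ones, so it was among the stronger peaks of all 4. The remainder were chr5:135991159-135992257, chr10:81213932-81214873 and chr12:111660190-111660810, and the 5 differences ran from -3.65 to -3.14. Of these 5 calls, 1 was kept in whole lists and 2 when ranked by -log10 q.

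The regions were then looked up among the 7076 strongest peaks of each stressed library, since these had not been used to choose them. Of the 534 regions of the activated libraries, 53.4%, 46.3% and 46.1% were present in stressed activated replicates 1 to 3, and 38.0%, 26.0% and 26.8% in stressed non-activated replicates 1 to 3. Every activated library lay above every non-activated one, with means of 48.6% ± 4.2 and 30.3% ± 6.7 (SD over 3 libraries; exact permutation p = 0.1, adjusted p = 0.14 over 7 tests). The difference of 18.3 percentage points was 15.4, 20.2 and 19.3 within the 3 animals and 22.2 without stressed non-activated replicate 1. In whole lists it was 28.0 points (exact permutation p = 0.4), but there the library labelled stressed non-activated replicate 1 held 100% of the 534, so the groups overlapped and its animal differed by -2.43 points. In the equal-length lists, regions present in all 3 stressed activated and no stressed non-activated list numbered 25 of the 534, and 0 had the opposite pattern. Of the 513, 2 had the first pattern and 9 the opposite one. The share of all regions with either pattern was not counted.

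Regions of the non-activated libraries gave no such order over all 6. Of the 513, 40.2%, 58.7% and 48.1% were present in stressed activated replicates 1 to 3, and 33.7%, 74.9% and 71.0% in stressed non-activated replicates 1 to 3. The difference of -10.9 percentage points was within the spread (means 49.0% ± 9.3 and 59.8% ± 22.7, SD over 3 libraries; exact permutation p = 0.5). Stressed non-activated replicate 1 was the lowest of all, and without it the difference was -23.9 points (exact permutation p = 0.2, where 0.1 is the lowest reachable). Within animals it was 6.43 points in replicate 1 and -16.2 and -22.8 in replicates 2 and 3. That library also had the fragment length and depth of an activated one, while replicates 2 and 3 had fragments of 250 and 241 bp and 0.737 and 0.309 fragments per kb. The part of fragment length and depth in these shares was not tested. Regions shared by all 4 standard-reared libraries were found in 92.6% to 95.0% of cases in stressed activated lists and 87.9% to 90.4% in stressed non-activated ones (difference 4.66 points; exact permutation p = 0.1; adjusted p = 0.14), and the difference was 4.58 points without stressed non-activated replicate 1.

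**Figure D4:**
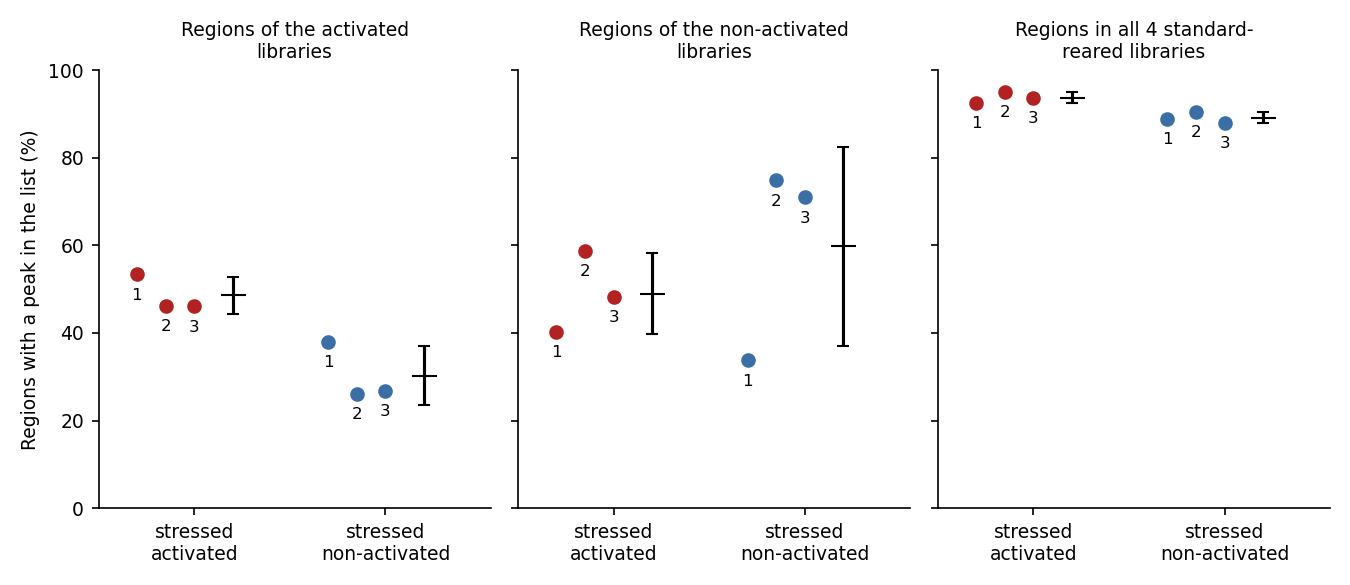
Percent of regions with a peak among the 7076 strongest of each stressed library, for the 534 regions of the activated (left), the 513 of the non-activated (middle) and the 4210 shared by all 4 standard-reared libraries (right); points are libraries with their replicate number, bars the mean and SD of 3. Activated libraries lie above non-activated ones on the left, and non-activated replicate 1 is apart from replicates 2 and 3 in the middle.

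Ranks in stressed mice were set beside those of all shared regions. Each median covers only the regions with a peak in that library's equal-length list. Of the 105, these were 91, 97 and 95 in stressed activated replicates 1 to 3. In stressed non-activated replicates 1 to 3 they were 98, 75 and 70. Of the 289, each stressed list held between 273 and 288. The part of the regions left out in the differences below was not tested. The 105 regions had median percentiles of 80.8, 74.9 and 70.0 in stressed activated replicates 1 to 3, where shared regions stood at 63.8 to 65.2. In stressed non-activated replicates 2 and 3 they had 47.1 and 40.9, below the shared 68.0 and 69.0, whereas replicate 1 had 76.1 and exceeded its shared median of 54.4. For the 289 the stressed activated values were 34.3, 40.7 and 48.4, and the non-activated ones 30.6 in replicate 1 and 85.9 and 87.1 in replicates 2 and 3. For the 105 the means were 75.2 ± 5.4 and 54.7 ± 18.8 (SD over 3 libraries), a difference of 20.6 percentile points. The groups overlapped and the difference did not pass the test (exact permutation p = 0.3). For the 289 the difference of -26.7 was smaller than the spread of the non-activated libraries (SD 32.3; exact permutation p = 0.4; adjusted p = 0.4 over both). Without stressed non-activated replicate 1 they were 31.2 and -45.3 (exact permutation p = 0.1 for both, the lowest reachable). The part of that library's fragment length and depth in the ranks was not tested.

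**Figure D5:**
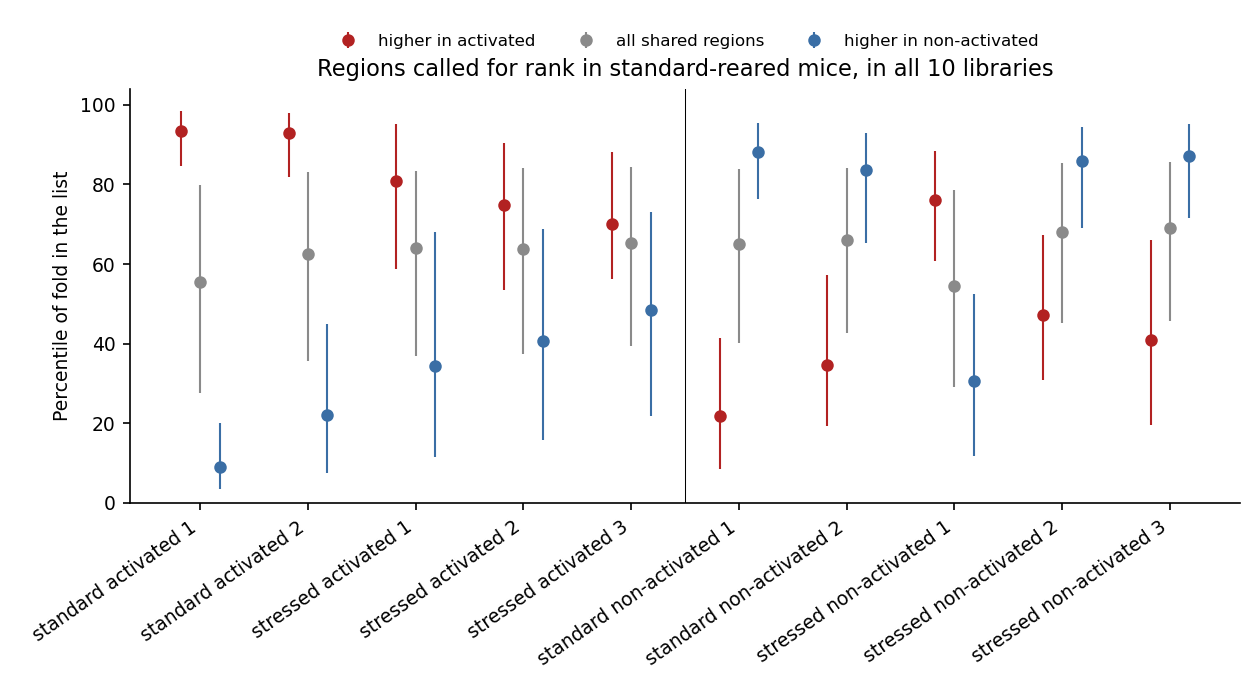
Percentile of fold in the equal-length list of each of the 10 libraries (median with lower and upper quartile) for the 105 regions ranked higher in activated (red), the 289 ranked higher in non-activated (blue) and all shared regions (grey); the vertical line parts activated from non-activated libraries. The library labelled stressed non-activated replicate 1 has the order of the activated libraries, with medians of 76.1 and 30.6. Stressed non-activated replicates 2 and 3 have the order of the standard-reared non-activated ones. Each median covers only the regions with a peak in that list.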

How the data were processed

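The authors deposited 1 peak list for each library. The submitters' processing notes name MACS2 2.2.9.1, SAMtools 1.13, Bowtie2 2.4.5, fastp 0.23.4, R 4.4.2 and the build mm39. The sources used here do not give the peak calling settings, any read shift or the treatment of duplicates, which could change the calls. The deposited fold is a linear ratio of summit pileup to background, the deposited p and q are -log10 values, and the deposited score is 10 times the -log10 q. Repeated summits were counted once, keeping the strongest, on chromosomes 1 to 19, X and Y. Pileup and background were solved from fold and p with a pseudocount of 1, and 100% of peaks gave a whole pileup (relative misfit at most 2e-05). The lowest background over the smallest width gave the fragments per kb.

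Groups and replicates came from the labels, animals from the library names. Lists were cut to 7076 peaks by -log10 q. Peaks overlapping by at least 1 bp were merged, and 1 bp counted as presence. Values per library were tested by two-sided exact permutation. Ranks were tested with limma 3.58.1 (R 4.3.3) on normal scores of the percentile of fold, with Benjamini-Hochberg adjustment over all regions in all 4 lists. For presence, 10 regions per direction were named by their percentile in the weaker library, first those absent from both whole lists of the opposite class, and for rank the 5 with the largest difference. On simulated ranks of 4210 regions with 100 planted per direction at a difference of 3, 100% were recovered in both directions with 12 false calls. The planted difference was about as large as those of the named regions, so recovery of weaker calls was not measured. The simulated noise was independent between libraries, without depth, fragment length or a shared animal. It therefore does not give the number of false calls in the real lists. A simulated presence comparison found 100 of 100 planted regions in each direction. The planted regions lay away from every peak and were put in both lists of a class, so the rule had to find them. It checks the counting only and says nothing on the 534 and 513 regions. The comparison and lists were chosen with earlier results of these data known. Promoter share, gene lists and sequence motifs were planned and not run, since the tables at hand are of GRCm38.p6. Scripts ran in Python 3.11.15 with SciPy 1.17.1, pandas 2.3.3, NumPy 2.4.6 and Matplotlib 3.10.9.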

Additional observations from a re-analysis of the deposited data

Results flagged for a closer look

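Peaks on sequence not placed on a chromosome, which entered no comparison, numbered 57 in activated replicate 1 and 28 in activated replicate 2, above the 6 and 11 in the non-activated replicates of standard-reared mice. In stressed mice there were 44, 30 and 34 in activated and 46, 13 and 5 in non-activated replicates 1 to 3.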

How the results depend on the processing

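Peak number, and width and covered length at equal length, kept their direction in all alternatives run except the whole lists, where the log2 width difference turned from 0.64 to -0.31 (exact permutation p = 0.667). Leaving out 1 library gave 0.76 to 1.97 for log2 peak number, 0.37 to 0.91 for width and 0.38 to 0.87 for covered length. The replicate number as a block does not pair animals here; it left these differences unchanged (1.37, 0.64 and 0.62; smallest exact permutation p of 0.5), gave 116 and 314 rank calls by limma, and in stressed mice, where it pairs animals, 18.3 and -10.9 points for presence and 20.6 and -26.7 for rank. Animal as a random block could not be fitted with 4 libraries. Presence counts were 2844 and 42 in whole lists, 740 and 783 when cut by fold, and 414 and 461 with 3538 peaks; leaving out 1 library gave 897 to 1226 and 768 to 1345. Rank calls, higher in activated and in non-activated, were 200 and 8 in whole lists of unequal length, 12 and 6 by -log10 q, 0 and 0 with at least 3 libraries (690 unadjusted, limma), and 21 to 147 and 38 to 251 with 1 library left out. Chosen after seeing the data, ranks among shared regions gave 166 and 220, and solved pileup 2 and 0 (646 unadjusted). Of the 10 regions named for rank, none kept its call by pileup or with at least 3 libraries; the 5 higher in activated kept 5 in whole lists and 4 by -log10 q, and the 5 higher in non-activated kept 1 and 2. Of the 10 named for presence in each class, 0 of the activated and 3 of the non-activated ones kept their pattern in lists of 3538 peaks. In stressed mice the presence difference ranged from 15.9 to 22.2 points for the 534 and from -23.9 to -3.35 for the 513 with 1 library left out, and in whole lists these were 28.0 (exact permutation p = 0.4) and 3.77 (exact permutation p = 0.7). The rank difference, with libraries left out after seeing the data, ranged from 13.7 to 31.2 and from -45.3 to -17.1. The cause of these shifts was not tested. The non-activated lists allow calls from 4 and 3 fragments and the activated ones from 7 and 6, so absence from a list is not absence of open chromatin. Promoter shares were not run.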
